A study of Homo sapiens with 9 samples.

Results

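The genes described here are 10 human transporters that move platinum drugs, copper or other anticancer drugs across membranes. They were taken by symbol from a table of 57773 genes: the copper importer gene SLC31A1, the copper export pumps ATP7A and ATP7B, and the ATP-binding cassette (ABC) efflux pumps ABCB1, ABCC1, ABCC2, ABCC3, ABCC4, ABCC5 and ABCG2. Their RNA was measured in OVCAR-8 cells, an established line from a human ovarian carcinoma, after siRNA against CDK12. CDK12 is a kinase that phosphorylates the tail of RNA polymerase II and is needed for full-length transcription of many genes, among them DNA repair genes. The groups were CDK12-2 siRNA, CDK12-6 siRNA and a luciferase siRNA as the control, with 3 libraries each, named AK39, AK41 and AK49 in every group. All cells were transfected and were harvested 48 h later, and no drug is named in the labels. The design text calls the 3 libraries of a group technical replicates, so every p-value below measures the spread between libraries and not between separate cultures.

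Platinum drugs and copper are thought to share part of their routes into and out of cells. SLC31A1, also called CTR1, is the high-affinity copper importer, and ATP7A and ATP7B pump copper into the secretory pathway and out of the cell; all 3 have been linked to cisplatin handling in cell studies. The ABC pumps use ATP to push substrates outwards. ABCB1 (P-glycoprotein) and ABCG2 carry many unmodified hydrophobic drugs, paclitaxel being a well-known ABCB1 substrate, while pumps of the ABCC family carry organic anions, many of them conjugated to glutathione, glucuronide or sulfate.

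The targeted gene was checked first. CDK12 had 2.06, 2.57 and 2.70 RPKM with CDK12-2 siRNA and 2.09, 2.37 and 2.75 RPKM with CDK12-6 siRNA, against 8.33, 7.09 and 8.40 RPKM with luciferase siRNA (AK39, AK41 and AK49 in each group). RPKM is the read count scaled to the length of the gene in kilobases and to each 1000000 reads of the library. Every CDK12 siRNA library was below every control, and the mean was 0.305 times that of luciferase (log2 fold change on log2(RPKM + 1) of -1.39 ± 0.095 SE, limma, adjusted p = 1.5e-05).

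Each library held 104963048 to 131472019 reads in listed genes. Of 9 epithelial and ovarian markers, 6 were at 1 RPKM or more in every library, while MUC16 and KRT19 were at or near 0. The summed level of the 9 was 406 to 555 RPKM in CDK12 siRNA libraries and 429 to 512 RPKM in luciferase libraries. Most of that sum was KRT8, KRT18 and KRT7, so it hides changes in single markers. Mean MSLN was 14.7 RPKM with CDK12 siRNA and 29.1 RPKM with luciferase siRNA. KRT7 (68.9 and 49.2 RPKM) and EPCAM (3.68 and 2.59 RPKM) went the other way. The summed level of 4 white blood cell markers was 3.89 to 5.5 RPKM in CDK12 siRNA libraries and 13.9 to 16.5 RPKM in luciferase libraries. Nearly all of it was CD68, CD3E was at 0 throughout, and PTPRC reached at most 0.071 RPKM; the part of this difference in the transporter results was not tested. Fibroblast markers summed to 16.2 to 37.4 RPKM in CDK12 siRNA libraries and 13.0 to 23.3 RPKM in luciferase libraries. COL1A1 made up nearly all of that sum, at 12.5 to 36.1 RPKM over all libraries. PDGFRB was at 0.586 to 1.26 RPKM, COL1A2 reached at most 0.0066 RPKM and DCN was at 0. Endothelial and liver markers each summed to at most 0.136 RPKM. The library with the most non-polyadenylated RNA was AK39 for both CDK12 siRNAs, at 1630.6 and 1639.9 reads per 1000000, and AK41 for luciferase, at 1753.8 reads per 1000000, against 942.4 to 1397.2 in the other 6. Those 3 libraries also had the smallest share of reads in listed genes (68.2%, 70.5% and 75.8%, against 77.3% to 82.7%).

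Depletion of CDK12 was accompanied by opposite changes among the 10 transporters. SLC31A1 and ABCB1 rose by 43.2% and 53.7% in mean RPKM, and ABCC4 was 40.0% below the control. In bulk RNA, less RNA per cell and fewer cells that express a gene cannot be told apart. Among transporters with very little RNA, ABCC2 was lower and ABCC3 higher, each with no overlap between groups. The most abundant pump, ABCC1, did not pass the test, nor did ATP7B, ABCC5, ATP7A or ABCG2. Of the 10 genes, 6 reached 1 RPKM in at least 3 libraries and were tested with limma among 15208 genes. With both siRNAs pooled against luciferase, 3 of these 6 passed an adjusted p of 0.05 (2 higher and 1 lower), while 33.0% of all tested genes did (13.3% higher and 19.7% lower). Of the 2 higher genes, ABCB1 was among the 6 only because its CDK12 siRNA libraries reached 1 RPKM, so this count and those below lend no support to an increase. With CDK12-2 siRNA alone the same 3 genes passed, where 25.2% of tested genes did (9.76% higher and 15.4% lower), and with CDK12-6 siRNA alone the same 3 passed again, where 26.0% did (10.4% higher and 15.6% lower). Both siRNA comparisons use the same 3 luciferase libraries. With the library of each group that had the most non-polyadenylated RNA left out, 4 of the 6 passed, the fourth being ATP7B. A share of 3 in 6 on so few genes does not set the transporters apart from other genes.

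**Figure D1:**
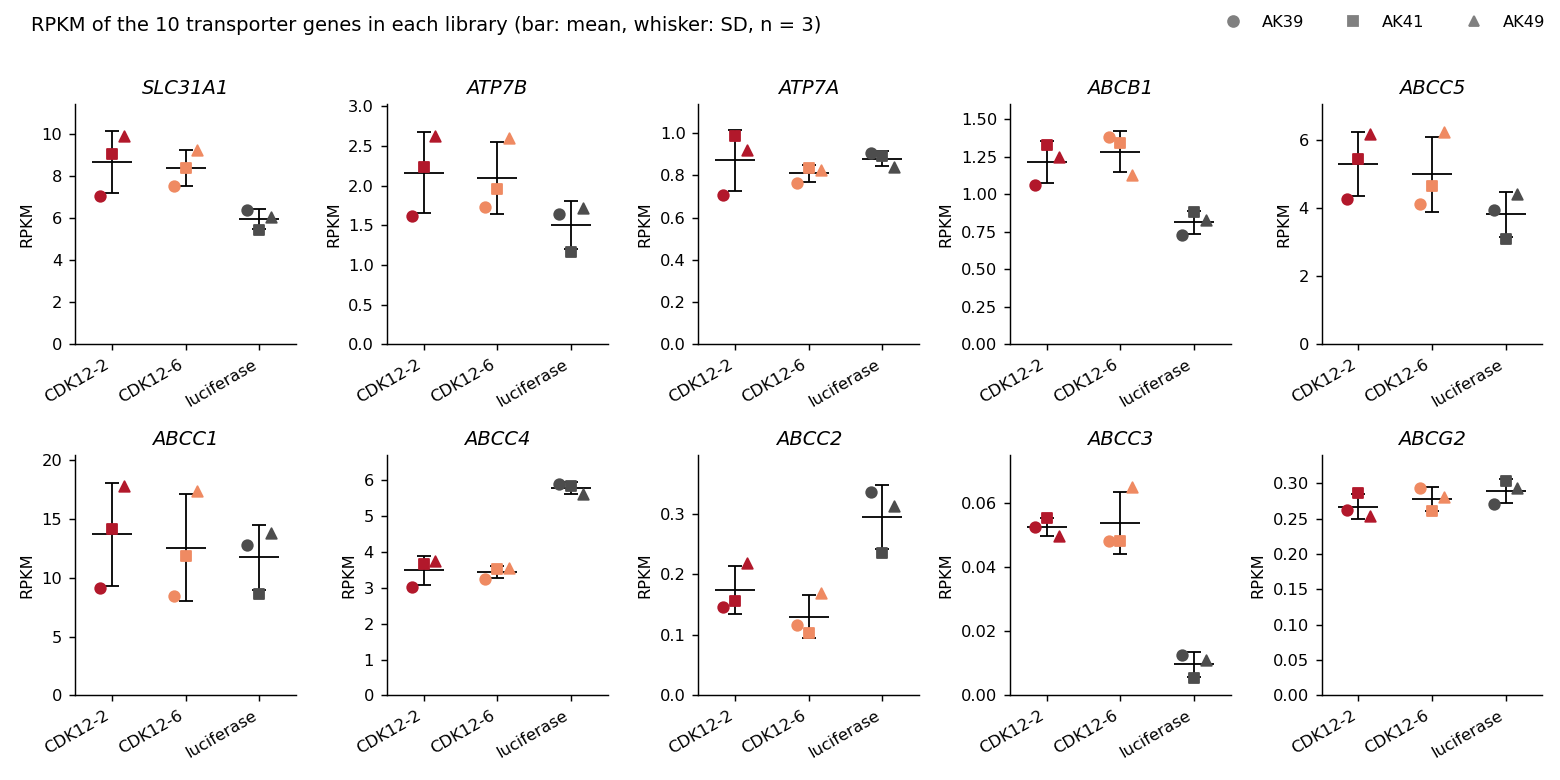
RPKM of the 10 transporter genes in each library (vertical axis, linear and from 0, on a separate scale for each gene), with CDK12-2 siRNA, CDK12-6 siRNA and luciferase siRNA from left to right; circles, squares and triangles are AK39, AK41 and AK49, the bar is the mean and the whisker the SD (n = 3). The CDK12 siRNA libraries lie above all luciferase libraries for SLC31A1, ABCB1 and ABCC3 and below them all for ABCC4 and ABCC2.

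SLC31A1 is listed on hg19 at chr9:115983808-116028674. Its level was 7.05, 9.05 and 9.89 RPKM with CDK12-2 siRNA and 7.54, 8.38 and 9.24 RPKM with CDK12-6 siRNA, against 6.36, 5.44 and 6.06 RPKM with luciferase siRNA (AK39, AK41, AK49). All 6 CDK12 siRNA libraries were above all 3 controls, and AK39 was the lowest of each CDK12 siRNA group and the highest of the control group. The lowest library of every group was the one with the most non-polyadenylated RNA, AK41 for luciferase. The means were 8.53 ± 1.08 RPKM with CDK12 siRNA (SD, n = 6) and 5.95 ± 0.47 RPKM with luciferase siRNA (SD, n = 3). On the log2(RPKM + 1) scale the difference was 0.45 ± 0.107 (SE, limma, adjusted p = 0.011) for both siRNAs together, 0.47 ± 0.124 (adjusted p = 0.022) for CDK12-2 and 0.43 ± 0.124 (adjusted p = 0.030) for CDK12-6. The call for both siRNAs together was lost when AK41 or AK49 was removed from all 3 groups (adjusted p = 0.18 and 0.059, with log2 differences of 0.38 and 0.38). The single-siRNA calls were lost without the AK41 or AK49 library of that siRNA or of luciferase, and for CDK12-6 also without luciferase AK39 (adjusted p = 0.061 to 0.088), and without the filter on low values (0.054 for CDK12-2 and 0.069 for CDK12-6).

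The kit did not record strand, so reads in the region where SLC31A1 overlaps CDC26, a gene for a subunit of the anaphase-promoting complex, cannot be assigned by strand. CDC26 moved the other way, with 14.0 ± 0.982 RPKM in CDK12 siRNA libraries and 18.4 ± 0.942 RPKM in luciferase libraries (log2 difference -0.37 ± 0.079 SE, limma, adjusted p = 0.0063). The 3 tested genes whose levels followed SLC31A1 most closely over the 9 libraries were YY2 (Pearson r = 0.998 on log2(RPKM + 1)), PTPRJ (r = 0.996) and WASF1 (r = 0.996). All 3 were called higher themselves (limma, adjusted p = 0.0082, 0.0073 and 0.0065). YY2 had 1.45 ± 0.274 RPKM with CDK12 siRNA and 0.779 ± 0.113 RPKM with luciferase siRNA. It was thus among the tested genes only through its CDK12 siRNA libraries, and its likeness lends no support to an increase. SLC31A1 was taken as the largest called increase on log2(RPKM + 1); by ratio of means ABCB1 rose more (1.54 against 1.43). These points share library and depth, and group differences enter the correlation.

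The promoters of the 3 genes that passed the test with both siRNAs are shown so that the windows of genes that rose and of the gene that fell can be set side by side. The sequences are RefSeq windows on GRCh38.p14 from 250 bases before to 50 after a listed start, read along the gene's own strand, 5′ to 3′. Of the 10 genes, 8 had such an entry, and for a gene with more than 1 start the one nearest the 5′ end of its longest GENCODE transcript was taken. Capitals mark the GC box GGGCGG, the letters bound by SP1-like factors, and the CCAAT box, each on either strand (CCGCCC and ATTGG on the other). SLC31A1 at chr9:113221294-113221593 on the plus strand held 3 GC boxes and 1 CCAAT box, ABCB1 at chr7:87600835-87601134 on the minus strand held 0 and 2, and ABCC4 at chr13:95301402-95301701 on the minus strand held 0 and 0.
SLC31A1: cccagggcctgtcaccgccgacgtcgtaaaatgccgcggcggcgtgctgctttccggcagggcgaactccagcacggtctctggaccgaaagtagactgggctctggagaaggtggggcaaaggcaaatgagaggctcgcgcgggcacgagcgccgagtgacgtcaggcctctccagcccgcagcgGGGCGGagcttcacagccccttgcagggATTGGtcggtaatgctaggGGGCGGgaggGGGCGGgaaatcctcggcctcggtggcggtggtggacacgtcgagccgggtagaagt
ABCB1: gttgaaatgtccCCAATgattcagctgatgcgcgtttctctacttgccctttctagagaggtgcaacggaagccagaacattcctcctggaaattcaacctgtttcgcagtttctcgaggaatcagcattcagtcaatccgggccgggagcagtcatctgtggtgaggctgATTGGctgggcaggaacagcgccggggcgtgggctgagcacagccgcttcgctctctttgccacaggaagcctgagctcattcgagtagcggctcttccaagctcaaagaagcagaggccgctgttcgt
ABCC4: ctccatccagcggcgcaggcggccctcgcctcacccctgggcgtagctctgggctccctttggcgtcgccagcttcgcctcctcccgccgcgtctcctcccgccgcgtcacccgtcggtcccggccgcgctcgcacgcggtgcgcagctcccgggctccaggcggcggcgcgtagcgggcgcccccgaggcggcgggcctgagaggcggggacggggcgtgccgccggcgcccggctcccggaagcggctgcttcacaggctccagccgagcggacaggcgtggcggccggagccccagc
Among 35116 promoters of 300 bases, 45.0% held a GC box, 34.6% a CCAAT box and 34.9% neither. The C and G content was 67.3% for SLC31A1, 55.3% for ABCB1 and 79.7% for ABCC4, against a median of 58.7% over all windows. The other members with an entry were ATP7B with 3 GC boxes and 1 CCAAT box, ABCG2 with 2 and 0, ABCC5 with 1 and 0, and ATP7A and ABCC2 with neither. A match of letters describes the window and was not tested against the RNA changes.

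ATP7B, the pump mutated in Wilson disease, is listed on hg19 at chr13:52506809-52585630. It had 1.62, 2.24 and 2.63 RPKM with CDK12-2 siRNA and 1.73, 1.96 and 2.60 RPKM with CDK12-6 siRNA, against 1.64, 1.16 and 1.72 RPKM with luciferase siRNA. The groups overlapped, since the AK39 library of CDK12-2 siRNA was below 2 of the controls. Its mean was 1.41 times that of luciferase, and the difference did not pass (log2 0.32 ± 0.130 SE, limma, adjusted p = 0.089), though it did without the CDK12-2 AK39 library (adjusted p = 0.037). Within AK numbers the mean ratio to luciferase was 1.02 in AK39, 1.81 in AK41 and 1.52 in AK49.

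ATP7A, the pump mutated in Menkes disease, is listed on hg19 at chrX:77166194-77305892 and stayed below 1 RPKM in every library. Its values were 0.708, 0.988 and 0.919 RPKM with CDK12-2 siRNA and 0.763, 0.837 and 0.828 RPKM with CDK12-6 siRNA, against 0.907, 0.892 and 0.841 RPKM with luciferase siRNA. The groups lay across each other, and an exact two-sided permutation test of the mean RPKM (6 against 3) gave p = 0.595, where the smallest p this design allows is 0.0238. In voom the log2 difference was -0.08 with a 95% interval of -0.28 to 0.12. Voom is limma with a precision weight for each observation, run here on whole reads recovered from the RPKM values. PGAM4, a near-identical copy of PGAM1 within the span of ATP7A and so of uncertain count, had 5.73 ± 0.728 RPKM with CDK12 siRNA and 5.16 ± 0.454 RPKM with luciferase siRNA.

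Because RPKM is per length, the copper genes can be set against each other in each library. ATP7B over ATP7A was 2.29, 2.27 and 2.87 with CDK12-2 siRNA and 2.26, 2.34 and 3.15 with CDK12-6 siRNA, against 1.81, 1.30 and 2.05 with luciferase siRNA. The importer over the sum of both exporters was 3.02, 2.80 and 2.78 with CDK12-2 siRNA and 3.03, 3.0 and 2.69 with CDK12-6 siRNA, against 2.5, 2.66 and 2.36 with luciferase siRNA. Both ratios were higher in all 6 CDK12 siRNA libraries than in all 3 controls; they were formed after the single values were known and carry no test.

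ABCB1 (P-glycoprotein), listed on hg19 at chr7:87133175-87342611, was near the detection filter. It had 1.06, 1.33 and 1.25 RPKM with CDK12-2 siRNA and 1.38, 1.34 and 1.13 RPKM with CDK12-6 siRNA, against 0.727, 0.883 and 0.826 RPKM with luciferase siRNA. No control library reached the lowest CDK12 siRNA library. These values rest on 853 to 1242 reads per CDK12 siRNA library and 528 to 850 per luciferase library. The ratio of means was 1.54, and the log2(RPKM + 1) difference of 0.31 ± 0.068 (SE, limma, adjusted p = 0.0070) understates it, as for any gene near 1 RPKM; with voom it was 0.61 ± 0.136 (adjusted p = 0.0047).

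ABCB1 entered the limma fit only through the 6 CDK12 siRNA libraries, the only ones above 1 RPKM, so its passing the filter already favoured an increase. Without any filter its adjusted p was 0.019 for both siRNAs together, 0.055 for CDK12-2 and 0.033 for CDK12-6. With the filter, CDK12-2 gave 0.29 ± 0.078 (SE, limma, adjusted p = 0.025) and CDK12-6 gave 0.33 ± 0.078 (adjusted p = 0.013), and removing AK41 from all groups ended the call for both together (adjusted p = 0.092). The CDK12-2 call was lost without CDK12-2 AK41 or AK49 or luciferase AK39 or AK49 (0.067 to 0.11) and after quantile normalization (0.11), and the CDK12-6 call without CDK12-6 AK41 (0.053) or luciferase AK39 (0.064). RUNDC3B overlaps ABCB1 and had 0.733 to 0.902 RPKM with CDK12 siRNA against 0.518 to 0.69 RPKM with luciferase siRNA, so it too lay higher in all CDK12 siRNA libraries, in reads that carry no strand; its part in the ABCB1 result was not tested.

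ABCG2, the breast cancer resistance protein, lies on hg19 at chr4:89011416-89152474. It had 0.262, 0.286 and 0.253 RPKM with CDK12-2 siRNA and 0.293, 0.260 and 0.280 RPKM with CDK12-6 siRNA, against 0.270, 0.303 and 0.293 RPKM with luciferase siRNA. The groups overlapped, and the means of 0.272 and 0.289 RPKM gave p = 0.190 in the exact two-sided permutation test. The 95% interval of the log2 difference in voom was -0.39 to 0.19.

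**Figure D2:**
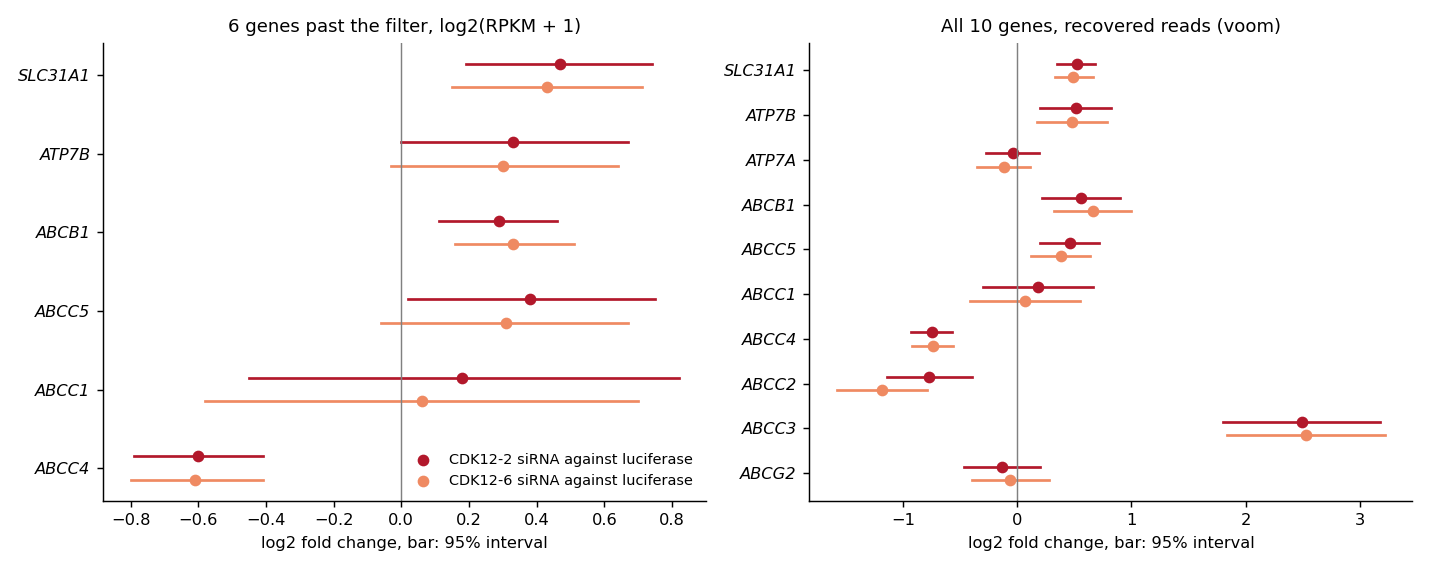
log2 fold changes (horizontal axis) with 95% intervals of each CDK12 siRNA against luciferase siRNA, CDK12-2 above CDK12-6; the left panel shows the 6 genes past the filter on the log2(RPKM + 1) scale and the right panel all 10 genes in voom on recovered reads. The pairs of siRNAs lie close together, except for ABCC2 in the right panel (-0.77 for CDK12-2 and -1.18 for CDK12-6). ABCC4 in both panels and ABCC2 in the right one lie left of 0. SLC31A1 and ABCB1 lie right of 0 in both panels with intervals that leave out 0, as do ABCC3, ABCC5 and ATP7B in the right panel and ABCC5 with CDK12-2 in the left one.

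Among the ABCC pumps, ABCC4 (MRP4), which exports cyclic nucleotides, prostaglandins and nucleotide analogues, had the lowest adjusted p of the 6 tested transporters. It is listed on hg19 at chr13:95672083-95953687 and, at 281.6 kb, spans the most genome of the 10 genes, where the median over tested genes was 20.9 kb. It had 3.03, 3.68 and 3.76 RPKM with CDK12-2 siRNA and 3.25, 3.54 and 3.56 RPKM with CDK12-6 siRNA, against 5.91, 5.84 and 5.61 RPKM with luciferase siRNA. The 3 controls lay close together and well above all 6 CDK12 siRNA libraries. Means were 3.47 ± 0.276 RPKM with CDK12 siRNA (SD, n = 6) and 5.78 ± 0.157 RPKM with luciferase siRNA (SD, n = 3). The log2 difference was -0.60 ± 0.075 (SE, limma, adjusted p = 0.00033) for both, -0.60 ± 0.087 (adjusted p = 0.0011) for CDK12-2 and -0.61 ± 0.087 (adjusted p = 0.0010) for CDK12-6. The call for both held under each of 22 other settings (adjusted p at most 0.026), leaving out libraries included, while the single-siRNA calls were lost without AK41 in all groups (0.056 for CDK12-2 and 0.057 for CDK12-6).

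The tested genes whose levels followed ABCC4 most closely over the 9 libraries were CEP78 (Pearson r = 0.998), MRTO4 (r = 0.996) and BRCA1 (r = 0.995). CEP78 encodes a centriole protein, MRTO4 a ribosome assembly factor, and BRCA1 a DNA repair protein. BRCA1 had 1.37 ± 0.1 RPKM with CDK12 siRNA and 2.45 ± 0.078 RPKM with luciferase siRNA. As with SLC31A1, library and depth are shared across these points, and group differences enter the correlation. CEP78, MRTO4 and BRCA1 were each called lower themselves (limma, adjusted p = 0.00026, 0.00013 and 0.00023). Of the 681 tested genes that span 200 kb or more, as ABCC4 and ABCB1 do, 19.8% were called higher and 14.8% lower, and their median log2 difference was 0.02, against -0.04 over all tested genes.

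ABCC5 (MRP5), another exporter of cyclic nucleotides, is listed on hg19 at chr3:183637722-183735803. It had 4.27, 5.43 and 6.15 RPKM with CDK12-2 siRNA and 4.10, 4.63 and 6.22 RPKM with CDK12-6 siRNA, against 3.94, 3.1 and 4.4 RPKM with luciferase siRNA. The groups overlapped through the AK39 libraries of both CDK12 siRNAs, which were below the highest control. The difference did not pass (log2 0.34 ± 0.141 SE, limma, adjusted p = 0.088), though it did without the CDK12-2 AK39 library (adjusted p = 0.049). Every one of 6 ratios to the luciferase library of the same AK number was above 1 (1.04 to 1.75). ABCC5-AS1, an antisense transcript within its span, reached at most 0.298 RPKM.

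In each library the order of ABCC4 and ABCC5 by RPKM followed the group. ABCC4 over ABCC5 was 0.709, 0.678 and 0.611 with CDK12-2 siRNA and 0.794, 0.765 and 0.573 with CDK12-6 siRNA, against 1.5, 1.88 and 1.28 with luciferase siRNA. By RPKM, ABCC5 was thus the more abundant of the pair in all 6 CDK12 siRNA libraries, and ABCC4 in all 3 controls. That order rests on the listed lengths, 8072 bases for ABCC4 and 11441 for ABCC5. The longest GENCODE transcripts have 5856 and 5921 bases. In luciferase AK49, ABCC5 had 6725 reads and ABCC4 had 6051. The ratio was chosen after the values were seen and carries no test.

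ABCC1 (MRP1), which exports glutathione conjugates and leukotriene C4, was the most abundant ABC pump of the set. It is listed on hg19 at chr16:16043434-16236931. Its level was 9.12, 14.1 and 17.8 RPKM with CDK12-2 siRNA and 8.42, 11.8 and 17.4 RPKM with CDK12-6 siRNA, against 12.8, 8.57 and 13.8 RPKM with luciferase siRNA. The libraries varied more within each group than between groups. The lowest of each group was the library with the most non-polyadenylated RNA, as it was for SLC31A1, ATP7B and ABCC5. Its log2 difference was 0.12 ± 0.247 (SE, limma, adjusted p = 0.74), with a 95% interval of -0.43 to 0.67. The sign was not stable: the 2 AK39 ratios to luciferase were 0.711 and 0.657 and the other 4 were 1.26 to 1.64, and with the level of non-polyadenylated RNA as a covariate the difference was -0.13 for both siRNAs together (adjusted p = 0.085) and -0.17 for CDK12-6 alone, where ABCC1 was called lower (limma adjusted p, 0.05 after rounding, just under the threshold).

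ABCC2 (MRP2), the conjugate exporter of the bile canaliculus, is listed on hg19 at chr10:101542489-101611949 and was expressed at a low level. It had 0.146, 0.156 and 0.219 RPKM with CDK12-2 siRNA and 0.117, 0.103 and 0.170 RPKM with CDK12-6 siRNA, against 0.336, 0.235 and 0.314 RPKM with luciferase siRNA. The lowest control lay above the highest CDK12 siRNA library. These values rest on 87 to 191 reads per CDK12 siRNA library and 254 to 274 per luciferase library. Mean RPKM was 0.152 with CDK12 siRNA and 0.295 with luciferase siRNA, a ratio of 0.514, with p = 0.0238 in the exact two-sided permutation test, the smallest it can give and not adjusted over the 4 genes so tested. Among all genes in the fit without a filter the adjusted p was 0.020 (limma), and with voom the log2 difference was -0.98 ± 0.144 (adjusted p = 0.00035).

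ABCC3 (MRP3), which exports bile salts and glucuronides across the basolateral membrane, lies on hg19 at chr17:48712138-48769613 and was the scarcest of the 10. It had 0.0527, 0.0555 and 0.0497 RPKM with CDK12-2 siRNA and 0.0482, 0.0482 and 0.0652 RPKM with CDK12-6 siRNA, against 0.0127, 0.0054 and 0.0109 RPKM with luciferase siRNA. In reads this was 79, 75 and 67 with CDK12-2 siRNA and 75, 63 and 85 with CDK12-6 siRNA, against 16, 9 and 14 with luciferase siRNA. All CDK12 siRNA libraries were above all controls, and in every library ABCC3 was the lowest of the 10 genes. The ratio of means was 5.51, the largest of the 10 genes, with p = 0.0238 in the exact two-sided permutation test, again the smallest it can give and not adjusted. In the fit without a filter the adjusted p was 0.0022 (limma), and the voom log2 difference was 2.51 ± 0.297 (adjusted p = 8.1e-05). ABCC3 met the voom filter of 10 reads in 3 libraries only through its CDK12 siRNA libraries, as luciferase AK41 held 9. Its voom result thus lends no support to an increase. No other listed gene overlaps ABCC3.

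Counting all 10 genes, 5 had no overlap between the 6 CDK12 siRNA and the 3 luciferase libraries, as did 19.5% of all genes above 0. Among the 6 past the filter it was 3, against 34.2% of tested genes. Voom on recovered reads called 7 of the 10 (5 higher and 2 lower), against 38.8% of its 26131 genes (18.9% higher and 19.9% lower). ABCC3, among the 5 higher, passed the voom filter only through its CDK12 siRNA libraries, so the voom count lends no support to an increase. Without a filter limma called 5 of the 10, against 13.9% of 44118 genes. By the authors' deposited table, in which 14.4% of all 57773 genes had a false discovery rate under 0.05, the 10 transporters held 7 such genes. Of the 57773 genes, 44118 were above 0 in any library and 26131 met the voom filter. All 10 transporters met it, so the shares of 13.9%, 14.4% and 19.5% do not cover like genes. In the authors' deposited table the log2 fold change was 0.50 for SLC31A1, 0.49 for ATP7B, 0.60 for ABCB1, 0.42 for ABCC5, 2.48 for ABCC3, -0.75 for ABCC4 and -0.97 for ABCC2. ATP7B and ABCC5 were called by the authors' deposited table (false discovery rates of 0.0045 and 0.0058) and by voom. The main limma fit on log2(RPKM + 1) tested both and called neither. After quantile normalization limma did call both (adjusted p = 0.0085 for ATP7B and 0.0043 for ABCC5), as in some other settings. Voom with library totals called neither (adjusted p = 0.066 for ATP7B and 0.069 for ABCC5).

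The order of the transporters by RPKM differed between the groups. In CDK12 siRNA libraries the order of the means was ABCC1, SLC31A1, ABCC5, ABCC4, ATP7B, ABCB1, ATP7A, ABCG2, ABCC2 and ABCC3. In luciferase libraries it was ABCC1, SLC31A1, ABCC4, ABCC5, ATP7B, ATP7A, ABCB1, ABCC2, ABCG2 and ABCC3. Among neighbours in the CDK12 siRNA order only ABCC1 and SLC31A1 overlapped in range (8.42 to 17.8 and 7.05 to 9.89 RPKM). Among neighbours in the luciferase order, SLC31A1 overlapped ABCC4, ATP7A overlapped ABCB1, and ABCC2 overlapped ABCG2. Over the 7 ABC pumps the summed RPKM was 17.6 to 29.5 with CDK12 siRNA and 18.9 to 25.2 with luciferase siRNA, so the totals overlapped. ABCC4 made up 12.3% to 18.5% of that sum with CDK12 siRNA and 22.2% to 30.8% with luciferase siRNA.

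**Figure D3:**
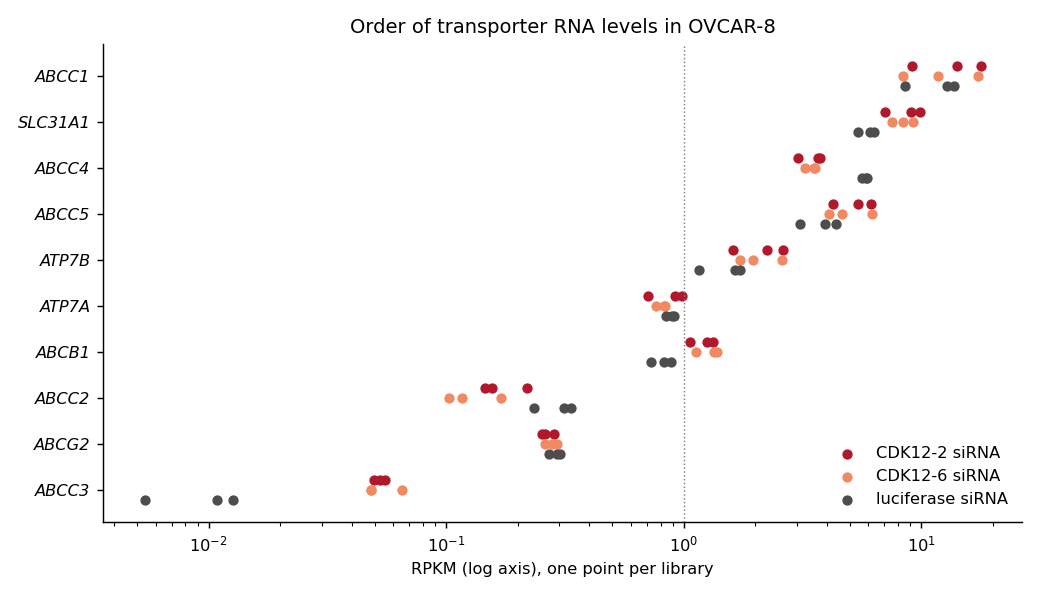
RPKM of each transporter on a log axis, 1 point per library, with CDK12-2 siRNA above CDK12-6 siRNA above luciferase siRNA in each row; the dotted line marks 1 RPKM. ABCC1 is at the top near 10 RPKM, and ABCC3 lies below 0.1 RPKM in every library.

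The CDK12 siRNAs were also compared with each other. None of the 6 tested transporters differed between CDK12-2 and CDK12-6 siRNA, and neither did any other gene at an adjusted p of 0.05 (limma, 0.0% of tested genes; the smallest adjusted p was 0.6). At an unadjusted p under 0.05 there were 101 genes and no transporter among them, and voom called 0. The 95% intervals of the log2 difference were -0.24 to 0.31 for SLC31A1, -0.22 to 0.13 for ABCB1 and -0.19 to 0.20 for ABCC4, so smaller differences between the siRNAs cannot be told from none. For ABCC2, voom gave 0.41 with an interval of -0.01 to 0.83, the 3 CDK12-6 values being 0.117, 0.103 and 0.170 RPKM beside 0.146, 0.156 and 0.219 RPKM with CDK12-2.

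Set against the luciferase library of the same AK number, 3 transporters were higher in all 6 ratios with no overlap of the groups: SLC31A1 (1.11 to 1.66), ABCB1 (1.37 to 1.90) and ABCC3 (3.78 to 10.3). ABCC4 was lower in all 6 (0.513 to 0.67) and so was ABCC2 (0.348 to 0.695). For SLC31A1 the mean ratio was 1.15 in AK39, 1.60 in AK41 and 1.57 in AK49. The AK number was not taken to pair libraries. The library with the most non-polyadenylated RNA was AK39 for both CDK12 siRNAs but AK41 for luciferase. Its part in these ratios was not tested. No label says what an AK number marks.

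**Figure D4:**
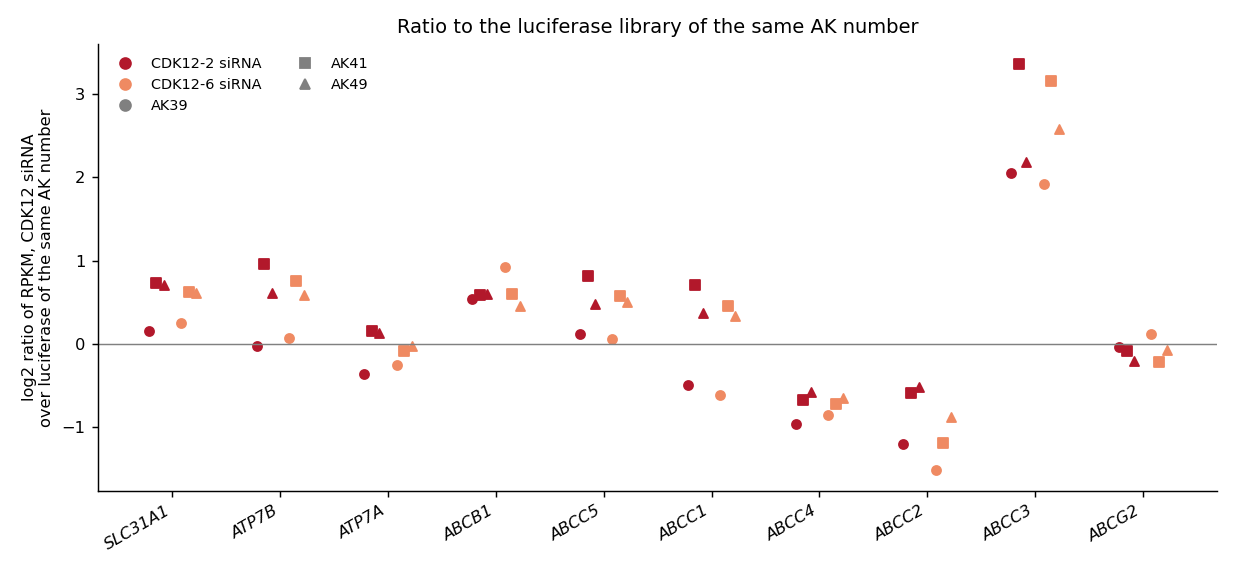
log2 ratio of RPKM (vertical axis) of each CDK12 siRNA library to the luciferase library of the same AK number for the 10 transporters, with CDK12-2 siRNA left of CDK12-6 siRNA; circles, squares and triangles are AK39, AK41 and AK49. ABCC4 and ABCC2 lie below 0 in all 6 ratios and ABCB1, SLC31A1 and ABCC3 above 0, while ABCC1 falls below 0 in AK39 only.

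Genes with related work were described from 5 lists by their counts, beside a median log2 difference of -0.04 and 33.0% of genes called over all tested genes. Of the other ABC transporters, 19 of the 40 found were tested; 3 were higher and 4 lower, with a median of 0.14. TAP1, a peptide transporter of antigen presentation, had 5.98 ± 0.594 RPKM with CDK12 siRNA and 3.84 ± 0.317 RPKM with luciferase siRNA (log2 0.53, limma, adjusted p = 0.0018). Among the 4 that fell were ABCB8 and ABCB10, both of the inner mitochondrial membrane. ABCB8 had 2.21 ± 0.411 RPKM with CDK12 siRNA and 4.05 ± 0.732 RPKM with luciferase siRNA (-0.66, adjusted p = 0.0039). ABCB10 had 6.78 ± 0.508 RPKM with CDK12 siRNA and 9.02 ± 0.13 RPKM with luciferase siRNA (-0.37, adjusted p = 0.0053).

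Copper handling genes were tested for 18 of 26; 3 were higher and 6 lower, with a median of -0.16, and without the 3 libraries of most non-polyadenylated RNA 2 were higher and 3 lower. With CDK12-2 alone 1 was higher and 6 lower, and with CDK12-6 alone 3 were higher and 2 lower; the difference between the siRNAs was not tested for the list. COX17, the chaperone that carries copper to cytochrome oxidase, had 6.55 ± 0.455 RPKM with CDK12 siRNA and 10.6 ± 0.313 RPKM with luciferase siRNA (log2 -0.62, limma, adjusted p = 0.00018). Metallothioneins, small proteins that bind copper and zinc, went both ways. MT1M had 6.05 ± 0.385 RPKM with CDK12 siRNA and 2.67 ± 0.264 RPKM with luciferase siRNA (0.94, adjusted p = 3.1e-05). MT2A had 244 ± 12.1 RPKM with CDK12 siRNA and 337 ± 60.4 RPKM with luciferase siRNA (-0.45, adjusted p = 0.012), a call lost in 3 of 22 other settings, and MT1E rose by 0.32 (adjusted p = 0.027), a call lost in 11 of them. Metallothionein genes are near-identical copies whose reads may be divided among them, so the single values are uncertain.

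**Figure D5:**
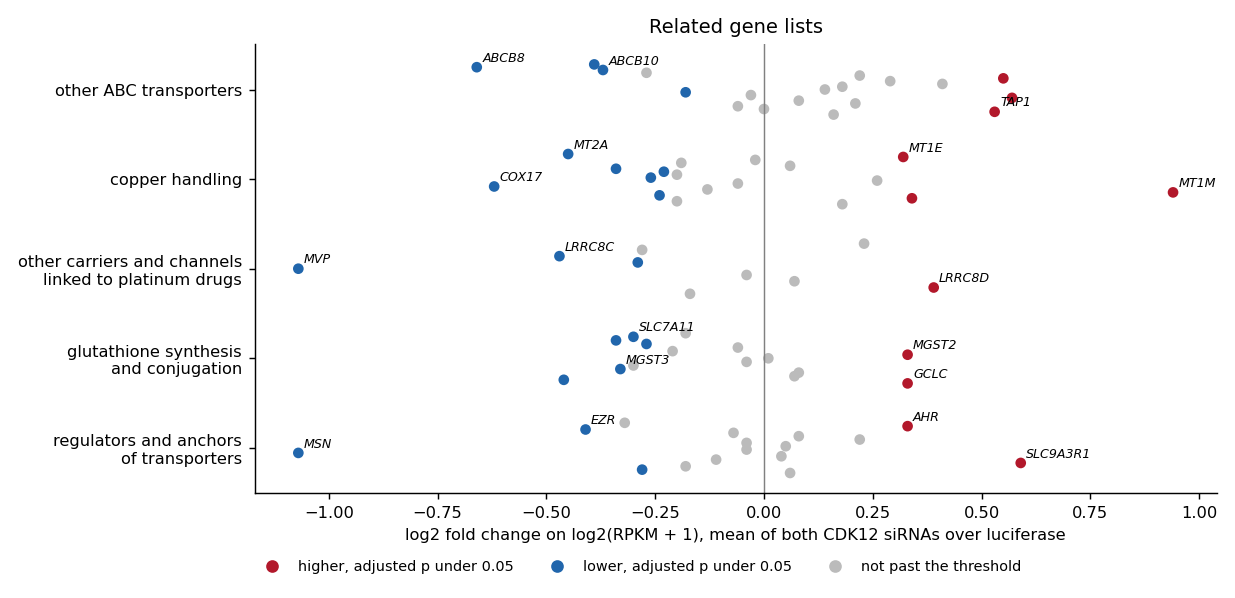
log2 fold change on log2(RPKM + 1), mean of both CDK12 siRNAs over luciferase (horizontal axis), of the tested genes in 5 related lists (rows, points spread vertically for legibility); red is called higher, blue called lower and grey not past an adjusted p of 0.05. MSN and MVP lie farthest left, both at -1.07, and MT1M farthest right at 0.94.

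Of other carriers and channels linked to platinum drugs, 9 of 14 were tested; 1 was higher and 3 lower, with a median of -0.17, and without the 3 libraries of most non-polyadenylated RNA 2 were higher and 4 lower. LRRC8D, a subunit of the volume-regulated anion channel that can pass cisplatin, had 13.2 ± 1.24 RPKM with CDK12 siRNA and 9.85 ± 0.326 RPKM with luciferase siRNA (log2 0.39, limma, adjusted p = 0.0089). LRRC8C, another subunit of that channel, had 2.78 ± 0.238 RPKM with CDK12 siRNA and 4.21 ± 0.187 RPKM with luciferase siRNA (-0.47, adjusted p = 0.0013). MVP, the major vault protein, had 2.31 ± 0.406 RPKM with CDK12 siRNA and 5.99 ± 1.1 RPKM with luciferase siRNA (-1.07, adjusted p = 0.00028).

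Of the genes for glutathione synthesis and conjugation, which make the conjugates that ABCC pumps carry, 15 of 22 were tested; 2 were higher and 5 lower, with a median of -0.18. GCLC, the catalytic subunit of the rate-limiting step, rose by 0.33 (limma, adjusted p = 0.0049) and MGST2 by 0.33 (adjusted p = 0.0096). MGST3 changed by -0.33 (adjusted p = 0.0055), as did the cystine importer SLC7A11 by -0.30 (adjusted p = 0.011). Of the regulators and membrane anchors of transporters, 16 of 18 were tested; 2 were higher and 3 lower, with a median of -0.04. MSN (moesin), which ties membrane proteins to actin, had 32.0 ± 5.81 RPKM with CDK12 siRNA and 67.6 ± 9.48 RPKM with luciferase siRNA (-1.07, adjusted p = 0.00083), and its relative EZR (ezrin) changed by -0.41 (adjusted p = 0.0059). SLC9A3R1, a scaffold for transporters at the membrane, rose by 0.59 (adjusted p = 0.011), and AHR, a receptor known to induce ABCG2, rose by 0.33 (adjusted p = 0.0065). Over 22 other settings the call was lost in 4 for SLC7A11, in 3 for MGST2 and in 2 for GCLC, LRRC8D, AHR and EZR. For MGST3, TAP1, ABCB8, ABCB10 and SLC9A3R1 it was lost in 1.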

How the data were processed

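Poly(A) RNA libraries were made with a kit that does not record strand, per the labels' protocols. The authors deposited RPKM values for 57773 genes with hg19 coordinates; TopHat2, featureCounts and edgeR are named in the submitters' processing notes. Per the file headers, their table also gives a log2 fold change and an FDR (adjusted p-value) for 1 comparison; which libraries entered it is not stated.

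Here, limma 3.58.1 in R 4.3.3 (eBayes with trend) was run on log2(RPKM + 1) of the 15208 genes that reached 1 RPKM in 3 or more libraries. All 9 libraries were fitted together, with Benjamini-Hochberg adjustment over these genes and a threshold of 0.05. Members below the filter had an exact two-sided permutation test. Whole reads were recovered from the RPKM steps (100% of values within 0.001) and used with voom (genes with at least 10 reads in at least 3 libraries), an alternative chosen after seeing the data, as was leaving out the library of each group with the most non-polyadenylated RNA. Libraries held 130.7 to 173.4 times 1000000 reads, and precision is set by the spread between libraries. Libraries of a group differed by a chi-square of 12.5 or more per degree of freedom, so none was a duplicate. The fit was also run on simulated data in which few genes changed and errors were independent between genes. In the real data 33.0% of tested genes were called, so that run cannot give the rate of false calls here.

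The members and lists were chosen with earlier results of these data known. From each list up to 2 higher and 2 lower genes with the lowest adjusted p are named, and for the members with the largest called increase and decrease on log2(RPKM + 1) the 3 genes most like each. A gene that this rule selects is not reported here. The marker genes singled out and the ratios between members were chosen after their values were seen. Alternatives were another pseudocount, filter, scaling, replicate block, covariate, samples in the fit and left-out libraries.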

Additional observations from a re-analysis of the deposited data

How the results depend on the processing

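Against luciferase, 3 of 6 transporters passed with both siRNAs together and with each alone. For both together the count was 5 without a filter on low values, after quantile normalization, after rescaling each library to 1000000, with the AK number as a replicate block, with non-polyadenylated RNA as a covariate and in voom with library totals, and 7 in voom. For CDK12-2 it was 5 after rescaling, with the covariate and in voom with library totals, and 7 in voom; for CDK12-6 it was 5 after quantile normalization and in voom with library totals, 6 with the covariate and 7 in voom. Leaving out 1 library gave 3 to 5 for both together and 1 to 3 for each siRNA. Leaving out AK41 in all groups gave 1 for both together and 0 for each siRNA, and leaving out AK49 gave 1 for CDK12-2; fewer libraries entered these fits. Between the siRNAs the count was 0 under every setting run.

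The AK number was not taken to pair libraries: 6 of 9 same-number correlations of deviations were over 0.1 (-0.56 to 0.81), and 5 of 9 libraries correlated best with their own number. The extra genes called with the replicate block were ATP7B (adjusted p = 0.032) and ABCC5 (0.021). Over all settings their adjusted p was 0.0049 to 0.46 for ATP7B (called in 7 of 22) and 0.003 to 0.45 for ABCC5 (called in 6 of 22), SLC31A1 had 7.7e-05 to 0.18, and ABCB1 0.00071 to 0.092.

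ABCC1 changed sign with the covariate, to -0.13 for both, -0.09 for CDK12-2 and -0.17 for CDK12-6, the last called lower (limma adjusted p = 0.05 after rounding). Without AK41 in all groups it was -0.09, -0.05 and -0.12 in the same order, and without AK49 -0.07 for CDK12-6. Leaving out 1 library gave ABCC1 -0.07 to 0.24 for both, -0.02 to 0.43 for CDK12-2 and -0.19 to 0.3 for CDK12-6. The cause was not tested. Between CDK12-2 and CDK12-6, small differences changed sign when 1 library was left out: ABCC1 -0.11 to 0.37, ABCC4 -0.04 to 0.08, ABCC5 -0.03 to 0.22, SLC31A1 -0.06 to 0.16, ATP7B -0.08 to 0.16 and CDK12 -0.05 to 0.1. Without AK41 in all groups this difference was -0.01 for ABCC4 and -0.02 for ATP7B and CDK12; ABCC4 was also at -0.02 without AK49 and -0.01 after quantile normalization, and ABCB1 was at 0.04 without AK39 and without the library of each group with the most non-polyadenylated RNA. In the exact permutation test the mean difference without 1 library was -0.173 to -0.123 RPKM for ABCC2 and 0.0412 to 0.0451 RPKM for ABCC3; without a luciferase library p was 0.0714, the smallest that 6 against 2 allows.

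Over all genes, 5024 were called for both siRNAs together, against 9706 with the covariate, 7910 after rescaling, 10134 in voom, 7801 in voom with library totals, 2935 without luciferase AK39, 3239 without luciferase AK49, 3046 without AK39 and 1628 without AK41. The planned count models of edgeR and DESeq2 were not run, because the deposited unit is RPKM. With 3 technical libraries a group, spread between cultures was not measured, and ABCC3 rests on under 100 reads per library.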
